A study of Homo sapiens with 4 samples.

Results

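Ectoderm cells with high expression of DNA replication genes were described here as the cells of the library that were closest to S phase, the part of the cell cycle in which the genome is copied. Human pluripotent stem cells (hPSC) had been infected with 2 kinds of lentivirus, one carrying pooled guide RNAs with an EGFP gene and a guide barcode of 22 nt, the other carrying Cas9 with mCherry. They had been sorted on fluorescence, had recovered for 1 week and had then been induced towards ectoderm, the germ layer of nervous system and skin, and both the high-S cells and the cells they were compared with came from this 1 ectoderm culture. The other culture, used here only as a library to which the same rule was applied, is labelled hPSC and carries the same kind of lentivirus infection. All 4 samples, 2 transcriptomes and 2 amplicon tables that link cells to guides, are labelled H9, an established hPSC line; expression went against that label in 2 of 2 transcriptomes checked, so the line is not settled for any value below.

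Each cell received an S score, the UMIs (unique molecular identifiers, 1 per captured transcript) of 16 replication genes per 1000000 UMIs of the cell (counts per 1000000, CPM), and an M score from 6 genes of G2 and mitosis in the same way. The S genes were MCM2, MCM3, MCM4, MCM5, MCM6, MCM7, PCNA, TYMS, RRM1, RRM2, UNG, GINS2, CDC6, CDC45, CLSPN and SLBP, and the M genes were TOP2A, CCNB1, PLK1, AURKA, CENPE and CDC20. High-S cells had an S score in the top 20% and an M score at or below the median. Low-S cells had an S score in the bottom 20% with the same limit on the M score. The rule found 1930 high-S cells and 1041 low-S cells among 13298 ectoderm cells with at least 3000 UMIs and at most 20% mitochondrial UMIs, out of 16360 ectoderm barcodes and 31693 barcodes in both transcriptomes. High-S cells were 14.5% of the kept cells and 72.5% of the 2662 cells in the top 20% of the S score.

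Before a cell copies its genome, the origin recognition complex, CDC6 and CDT1 load the MCM helicase on DNA in G1, a step called licensing. E2F transcription factors, released from RB proteins by cyclin-dependent kinases, switch on the genes for the helicase, the polymerases, nucleotide synthesis and cyclin E as the cell enters S phase. Pluripotent and early neural cells divide fast, with a short G1, and new histones and repair factors are made while the forks move. In G2 another set of genes, for the spindle, condensin and the anaphase-promoting complex, is switched on, and those transcripts are broken down or diluted after division.

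Promoters of some genes in this programme that are known E2F targets are shown as examples. The examples were picked by hand, and each stretch shown holds the letters described next. They therefore do not tell how common such letters are, and shares over sets of genes follow the sequences. For the examples from the S score, a higher level in high-S cells was set by the rule. The stretches are the 120 bases before the transcription start in RefSeq on GRCh38.p14, on the gene's strand, and capitals mark the letters TTTGGCGC, TTTCGCGC, TTTCCCGC or TTTGCCGC, searched on both strands as spelled forms of an E2F site. Matches on opposite strands can overlap, as in MCM6. PCNA (chr20:5126623-5126742, minus strand, 1 of 2 listed starts), MCM6 (chr2:135876444-135876563, minus) and GINS2 (chr16:85688955-85689074, minus) are genes of the S score. CDC25A (chr3:48188418-48188537, minus), DTL (chr1:212035628-212035747, plus), GMNN (chr6:24775293-24775412, plus, 1 of 2 listed starts) and CDCA5 (chr11:65084041-65084160, minus) were outside the score. The other listed starts of PCNA and of GMNN held 0 matches.
PCNA: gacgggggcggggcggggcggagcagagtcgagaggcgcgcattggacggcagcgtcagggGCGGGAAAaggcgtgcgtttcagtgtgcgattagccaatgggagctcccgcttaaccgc
MCM6: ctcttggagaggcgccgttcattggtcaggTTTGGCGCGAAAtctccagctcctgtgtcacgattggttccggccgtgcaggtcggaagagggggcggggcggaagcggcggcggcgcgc
GINS2: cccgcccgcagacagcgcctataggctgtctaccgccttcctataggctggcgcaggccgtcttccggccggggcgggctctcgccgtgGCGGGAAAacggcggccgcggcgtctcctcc
CDC25A: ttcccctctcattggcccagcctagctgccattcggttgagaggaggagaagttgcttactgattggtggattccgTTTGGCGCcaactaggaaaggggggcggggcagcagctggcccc
DTL: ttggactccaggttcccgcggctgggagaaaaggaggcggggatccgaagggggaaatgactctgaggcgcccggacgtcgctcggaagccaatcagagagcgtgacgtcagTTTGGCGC
GMNN: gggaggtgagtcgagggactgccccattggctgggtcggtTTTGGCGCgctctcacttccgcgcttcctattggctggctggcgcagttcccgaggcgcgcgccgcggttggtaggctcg
CDCA5: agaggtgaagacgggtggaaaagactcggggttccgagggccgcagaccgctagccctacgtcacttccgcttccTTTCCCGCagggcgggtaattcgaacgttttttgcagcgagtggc

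In the window from 250 bases before to 50 bases after the start, such letters stood in 10 of the 14 S-score genes found in the table (71.4%) and in 0 of the 5 M-score genes found there. Of the genes outside the scores that were higher in high-S cells, 37 of 164 held a match (22.6%), and of those that were lower, 1 of 27 (3.70%). The share was 7.32% over the 4878 tested genes with a promoter in the table and 3.99% over all 27305 genes in it. A match is a description of letters, and binding was not measured.

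The scores set the members, and their values are therefore a description. The S score needed for the top 20% was 1949 CPM and that of the bottom 20% was 836, and the median M score was 659. Cells just inside and just outside the upper limit had 1949.32 and 1948.78 CPM. High-S cells had a median of 12 UMIs of the S genes and low-S cells a median of 2, against a median of 1 UMI of the M genes in both. A single UMI separated 503 high-S cells (26.1%) and 494 low-S cells (47.5%) from their limit, and 585 cells with low M scores lay within 1 UMI below the upper limit. The SD of the S score over kept cells was 714 CPM, and 54.0% of its variance was of the size that counting alone gives. High-S cells are thus a range of a score and not a sharply bounded cell type.

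**Figure D1:**
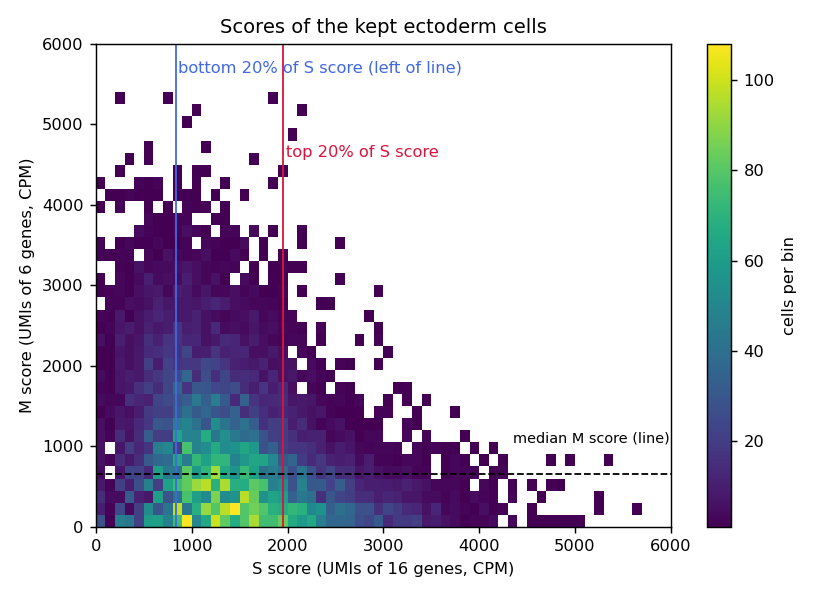
S score (x axis) and M score (y axis), both in CPM, of the 13298 kept ectoderm cells, with the colour giving the number of cells per bin. Vertical lines mark the limits of the bottom and top 20% of the S score at 836 and 1949 CPM and the dashed line the median M score at 659, and the cells form 1 cloud with no gap at any limit.

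Depth differed between the groups. The median was 4337.5 UMIs and 1923 genes in high-S cells, 3984 UMIs and 1748 genes in low-S cells and 5188 UMIs in all kept cells, with median mitochondrial shares of 3.32%, 3.17% and 3.13%. High-S cells made up 20.6% of the shallowest tertile of cells by UMIs, 14.2% of the middle and 8.82% of the deepest, and low-S cells 13.4%, 5.73% and 4.33%, so both groups came more often from shallow cells. The summed depth was 10105669 UMIs for high-S and 5309136 for low-S cells. The ectoderm and hPSC libraries shared 78 barcodes, 5 of them in high-S cells. Doublets were not removed and free RNA was not measured, and their part in the values was not tested.

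In the summed UMIs, again as CPM, the 16 S genes gave 2518 CPM in high-S cells, 575 in low-S cells, 1401 in all kept cells and 1127 in the 2660 cells with the highest 20% of M scores. The log2 ratio of high-S to low-S cells ran from 1.37 for SLBP, which binds histone mRNA, to 3.08 for CDC45, a subunit of the active helicase. These are ratios of the UMIs that chose the cells. When each UMI was put at random into 1 of 2 parts and cells were chosen on one part, the other part gave a log2 ratio of 0.66 (95% interval 0.60 to 0.71) for the summed S genes, against 2.90 in the part that chose them. In those unused UMIs CDC6, the loading factor of the helicase, was highest at 1.12 (0.81 to 1.44), and PCNA, the sliding clamp of the polymerases, was at 0.94 (0.73 to 1.16). The interval was above 0 for 15 of the 16 genes, with a median of 0.69. The exception was SLBP, at 0.07 (-0.25 to 0.40). All intervals here cover counting error only, since each culture was 1 library with no replicate, and no p-value is given.

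**Figure D2:**
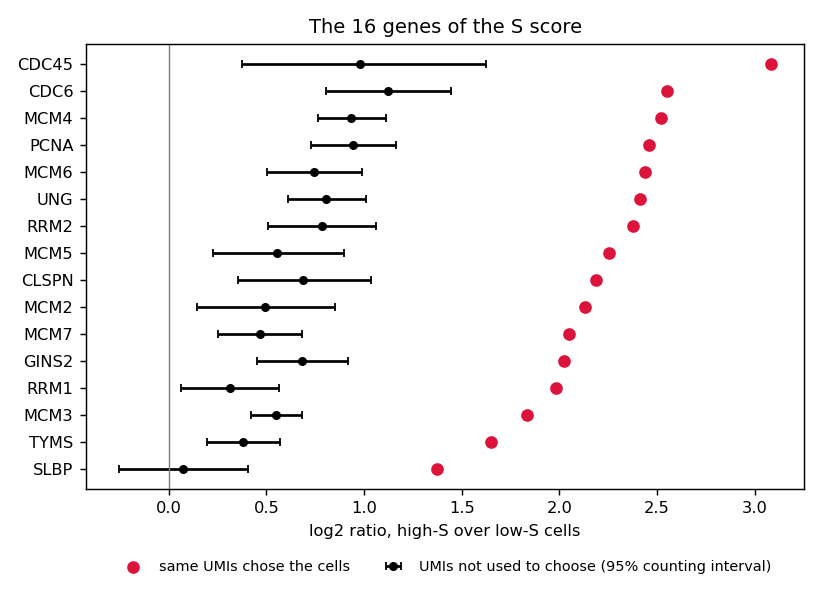
Log2 ratio of high-S to low-S cells (x axis) for each of the 16 genes of the S score in the ectoderm library. Red points use the UMIs that chose the cells and black points, with 95% counting intervals, use UMIs not used for choosing; all red points lie at 1.37 or above, and the black points lie between 0.07 and 1.12.

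The same genes could be read while left out of the score. With cells chosen on the 6 MCM genes alone, RRM2, the regulated subunit of ribonucleotide reductase, was at 96.1 CPM in high-S and 48.8 CPM in low-S cells (log2 ratio 0.98, 0.77 to 1.18), and CDC6 at 77.5 and 40.4 CPM (0.94, 0.72 to 1.17). TYMS, thymidylate synthase, differed less, at 155 and 133 CPM (0.21, 0.08 to 0.35), and for SLBP the interval reached from -0.05 to 0.44. With cells chosen on the 10 other genes, MCM4 was at 0.96 (0.84 to 1.09), MCM6 at 0.88 (0.72 to 1.06) and MCM2 at 0.38 (0.15 to 0.62). The helicase genes and the other S genes thus moved in the same direction when chosen on one another, with SLBP and TYMS the lowest. Over the 13298 cells the 6 MCM genes and the 10 others had a Pearson r of 0.28, as scores that share each cell's total.

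Outside the scores, 5983 genes reached 20 CPM in at least 1 of the groups of cells. By a rule of size, a log2 ratio of at least 0.5, 208 genes were higher in high-S cells (3.48%) and 37 were lower (0.618%). The median over all 5983 genes was 0.07, and the range -0.80 to 1.51. A ratio of 2-fold or more was reached by 25 genes, all higher. With scaling by the median gene instead of all UMIs, 152 genes were higher and 58 lower, so that the higher share of the calls was 72.4% instead of 84.9%. Of the 208 higher genes, 79 passed the 20 CPM limit in high-S cells only, and of the 37 lower genes, 15 in low-S cells only. Such genes had to differ. Among genes at 20 CPM or more in both groups, 2.35% were higher. Counts and medians of lists below include members that passed in high-S cells only, and are given as descriptions.

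The 15 highest genes outside the scores were H1-5, CDC25A, E2F7, WDR76, H1-3, CHAF1B, CCNE1, MCM10, ESCO2, DTL, CDKN1A, H1-2, FBXO5, H1-4 and BLM, with log2 ratios from 1.12 to 1.51. Of these, 10 were under 20 CPM in low-S cells and so entered only through the group in which they were high. As a description, 14 of the 15 stayed at 0.5 or more under all 17 alternative settings of the choice of cells and the scaling, and ESCO2 did under 16, with 0.43 in the deepest tertile of cells. WDR76, a DNA-binding WD-repeat protein, was at 44.2 CPM in high-S and 16.2 CPM in low-S cells (log2 ratio 1.45, 1.11 to 1.80).

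**Figure D3:**
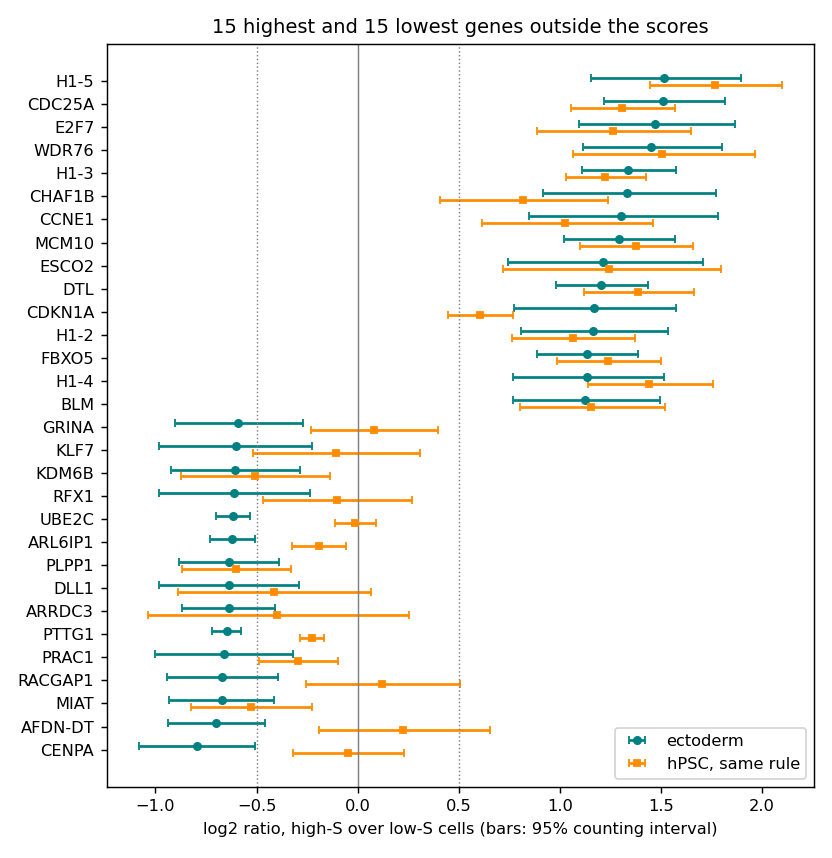
Log2 ratio of high-S to low-S cells (x axis, bars are 95% counting intervals) for the 15 highest and 15 lowest genes outside the scores, in the ectoderm library (teal circles) and with the same rule in the hPSC library (orange squares). The 15 highest genes lie above 0.5 in both libraries, whereas several of the 15 lowest lie near 0 in hPSC, such as UBE2C at -0.01.

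Of 23 listed genes of origin licensing and firing 16 were measured. Of these 7 were higher in high-S cells (beside 3.48% of all genes) and 0 lower. The median log2 ratio was 0.48 beside 0.07 for all genes. Among the 13 at 20 CPM or more in both groups 5 were higher (38.5%, beside 2.35% of all such genes). MCM10, which joins the helicase to the polymerases (protein-coding, GRCh38 chromosome 10, 13161554 to 13211104, plus strand), was at 61.7 CPM in high-S cells, 25.2 in low-S cells and 27.8 in cells with high M scores (log2 ratio 1.29, 1.02 to 1.57). GMNN, the inhibitor of CDT1 that blocks a second licensing, was at 91.2 and 49.2 CPM (0.89, 0.69 to 1.10). GINS4, a partner of GINS2 in the active helicase, was at 34.9 and 20.3 CPM (0.78, 0.47 to 1.10), and GINS1 at 66.5 and 40.1 CPM (0.73). ORC1 (0.64), CDC7 (0.56) and TOPBP1 (0.51) completed the 7. Subunits of the origin recognition complex differed among themselves: ORC2 was at 32.3 and 31.8 CPM (0.02, -0.25 to 0.30) and ORC4 at 39.0 and 37.5 CPM (0.06, -0.19 to 0.31). In the hPSC library the list's median was 0.58.

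At the replication fork, 12 of 22 measured genes were higher (beside 3.48% of all genes) and 0 lower, with a median of 0.57. Of the 18 that passed the limit in both groups 8 were higher (44.4%, beside 2.35% of all such genes), with a median of 0.43. POLD3, a subunit of DNA polymerase delta, was at 63.0 CPM in high-S and 29.4 CPM in low-S cells (log2 ratio 1.10, 0.85 to 1.36). FEN1, the nuclease that trims Okazaki fragments, was at 99.7 and 47.1 CPM (1.08, 0.88 to 1.29). RFC2, part of the clamp loader, was at 69.8 and 33.9 CPM (1.04, 0.80 to 1.29), and its partner RFC3 at 32.5 and 17.0 CPM (0.94). ATAD5, which unloads PCNA, was at 0.84 and TIPIN, of the fork protection complex, at 0.82. Of the single-strand binding protein RPA, RPA1 was at 178 and 184 CPM (-0.05, -0.16 to 0.07) and RPA3 at 219 and 204 CPM (0.10, -0.004 to 0.21). The polymerase epsilon subunit POLE4 was at 63.0 and 63.3 CPM (-0.01, -0.20 to 0.19).

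Nucleotide supply showed a smaller shift, with 3 of 23 measured genes higher, 0 lower and a median of 0.20. TK1, the thymidine kinase of the salvage route, was at 36.2 CPM in high-S and 20.5 CPM in low-S cells (log2 ratio 0.82, 0.51 to 1.14), and UMPS, of pyrimidine synthesis, at 36.4 and 23.2 CPM (0.65, 0.35 to 0.96). TK1 was at 0.43 with cells chosen on the MCM genes, and UMPS at 0.30 in cells thinned to 3000 UMIs. IMPDH2, of purine synthesis, was at 372 CPM in both groups (0.00, -0.08 to 0.08).

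Of 10 measured regulators of S phase entry, the E2F and G1/S cyclin list, 6 were higher (beside 3.48% of all genes) and 0 lower. The median was 0.96. Among the 8 that passed the limit in both groups 4 were higher (50%, beside 2.35% of all such genes), with a median of 0.63. The log2 ratio of the summed list was 0.76. CDC25A, the phosphatase that activates CDK2 (protein-coding, GRCh38 chromosome 3, 48157146 to 48188402, minus strand), was at 60.2 CPM in high-S, 21.1 in low-S and 27.2 in high-M cells (log2 ratio 1.51, 1.22 to 1.82). E2F7, a repressor among the E2F factors and itself an E2F target, was at 35.5 and 12.8 CPM (1.47, 1.09 to 1.87). CCNE1, cyclin E1, was at 22.3 and 9.04 CPM (1.30, 0.85 to 1.78) and at 7.73 CPM in high-M cells. DTL, which targets CDT1 for destruction on DNA-bound PCNA, was at 84.7 and 36.7 CPM (1.21, 0.98 to 1.44), and FBXO5, an inhibitor of the anaphase-promoting complex, at 68.6 and 31.3 CPM (1.13, 0.89 to 1.39). TFDP1, the partner of E2F factors, was at 0.79. CCNA2, cyclin A2, was at 68.2 and 60.8 CPM (0.16, -0.03 to 0.36), and SKP2, which marks CDK inhibitors for destruction, at 68.5 and 56.7 CPM (0.27, 0.08 to 0.47).

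Of 15 replication-linked histone genes 5 were measured and all 5 were higher (beside 3.48% of all genes), with a median of 1.16. The members H1-5, H1-2 and H1-4 were under 20 CPM in low-S cells, so they had to be higher, and they set that median. Most transcripts of these genes end without a poly(A) tail, and the library was made from polyA RNA, so the levels concern the captured fraction. H1-5 was at 39.3 CPM in high-S and 13.7 CPM in low-S cells (log2 ratio 1.51, 1.15 to 1.90), H1-3 at 88.1 and 34.8 CPM (1.34, 1.11 to 1.57) and H4C3 at 423 and 283 CPM (0.58, 0.49 to 0.66). H1-2 (1.16) and H1-4 (1.13) lay between them. H1-3 and H4C3, the 2 that passed the limit in both groups, were higher, beside 2.35% of all such genes. Summed over all 15 list members in the table, whether or not they passed the limit, the level was 681 CPM in high-S, 409 in low-S and 493 in high-M cells (0.74, 0.67 to 0.81). The replication-independent variants differed from them, with 0 of 8 higher and a median of -0.02. H2AZ1 was at 0.19 (0.15 to 0.23) and H3-3B at -0.09 (-0.13 to -0.05). Histone genes lie in clusters of near-identical copies, and how the authors assigned reads that fit several copies is not given in the sources used here.

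Genes that handle stalled forks and repair were higher in 13 of 21 measured cases (beside 3.48% of all genes) and lower in 0. The median was 0.60. Of the 17 that passed the limit in both groups 10 were higher (58.8%, beside 2.35% of all such genes). BLM, the helicase that dissolves joined DNA strands, was at 32.9 CPM in high-S and 15.1 CPM in low-S cells (log2 ratio 1.12, 0.77 to 1.50). BRCA1, which acts in homologous recombination, was at 51.0 and 27.3 CPM (0.90, 0.63 to 1.18). USP1, which removes ubiquitin from PCNA and FANCD2, was at 74.6 and 41.1 CPM (0.86). The lowest of the list were FANCD2 (0.18, -0.02 to 0.38), CHEK2 (0.19, -0.02 to 0.40) and BARD1 (0.32, 0.14 to 0.49), the last the partner of BRCA1.

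Chromatin assembly and maintenance of DNA methylation showed 10 of 15 measured genes higher (beside 3.48% of all genes) and 0 lower. The median was 0.56. Of the 12 that passed the limit in both groups 8 were higher (66.7%, beside 2.35% of all such genes). Both regulated subunits of CAF-1, which places new histones behind the fork, were among the highest: CHAF1B at 27.0 CPM in high-S and 10.7 CPM in low-S cells (log2 ratio 1.33, 0.91 to 1.77) and CHAF1A at 72.0 and 34.7 CPM (1.06, 0.82 to 1.30). Their partner RBBP4, which also works in other complexes, was at 288 and 260 CPM (0.15, 0.05 to 0.24). ATAD2, a bromodomain ATPase, was at 58.2 and 29.01 CPM (1.00, 0.75 to 1.27), the histone chaperone ASF1B at 0.93 and its paralog ASF1A at 0.23 (-0.12 to 0.60). EZH2, the methyltransferase of Polycomb complex 2, was at 37.1 and 21.8 CPM (0.76, 0.46 to 1.08). Its ratio in the hPSC library was 0.13.

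Of the 11 cohesin genes that passed the limit in both groups 2 were higher, beside 2.35% of all such genes. ESCO2 passed in high-S cells only. The whole list held 3 higher genes of 13 measured (beside 3.48% of all genes) and 0 lower, with a median of 0.13. Those 3 include the genes that establish cohesion behind the fork, ESCO2, the acetyltransferase, at 20.1 CPM in high-S and 8.66 CPM in low-S cells (log2 ratio 1.21, 0.75 to 1.71), and CDCA5, sororin, at 56.9 and 36.0 CPM (0.66, 0.42 to 0.91). SMC1A, of the ring itself, was at 140 and 90.0 CPM (0.63, 0.48 to 0.78), and at 0.21 in cells thinned to 3000 UMIs. STAG2, another cohesin subunit, was at 126 and 124 CPM (0.02, -0.12 to 0.16).

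Over origin, fork, nucleotide, repair and chromatin lists together, 132 genes lay outside the scores and 97 were measured. Of these 45 were higher (46.4%, beside 3.48% of all genes) and 0 were lower, and 94 had a ratio above 0. The limit of 20 CPM was passed in both groups of cells by 83 of the 97, and of these 83 genes 34 were higher (41.0%, beside 2.35% of all such genes), with a median of 0.42. The other 11 higher genes passed in high-S cells only. The median of all 97 was 0.47, and under the alternatives for the choice of cells it ran from 0.34, in UMIs not used for choosing, to 0.56. The lists were written with earlier results of these data known.

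**Figure D4:**
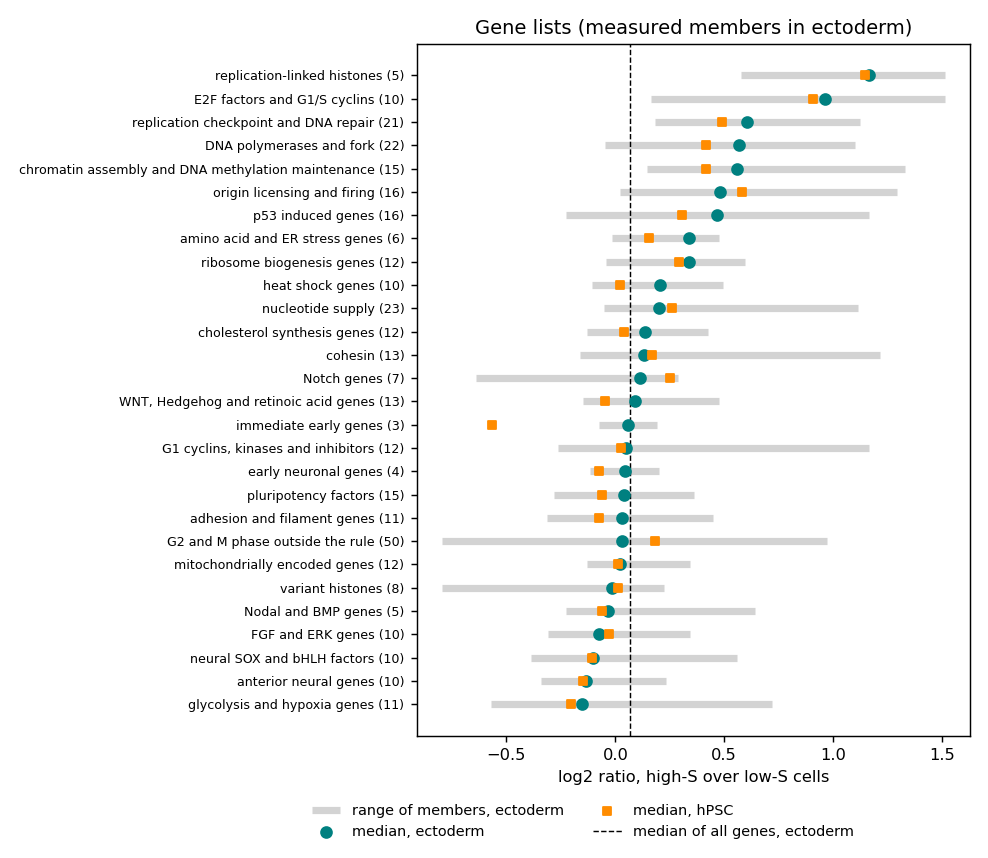
Median log2 ratio of high-S to low-S cells (x axis) over the measured members of each gene list in ectoderm (teal circles) and in hPSC (orange squares), with the range of members in ectoderm in grey and the median of all genes as a dashed line at 0.07. Replication-linked histones (1.16) and the E2F and G1/S list (0.96) lie farthest to the right, and lineage lists lie between -0.13 and 0.11. Medians include members that passed 20 CPM in high-S cells only, 3 of 5 histones and 2 of 10 E2F and G1/S genes. Without such members the E2F and G1/S median was 0.63.

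Genes of G2 and mitosis outside the M score did not move as one group. Of 50 measured genes 7 were higher and 4 lower (beside 3.48% and 0.618% of all genes), with a median of 0.03. Of the 47 that passed the limit in both groups 6 were higher (12.8%, beside 2.35% of all such genes) and 4 lower. NCAPH passed in high-S cells only. The higher ones include condensin subunits, with NCAPG at 41.4 CPM in high-S, 21.1 in low-S and 87.5 in high-M cells (log2 ratio 0.97, 0.67 to 1.29) and NCAPH at 26.9 and 16.8 CPM (0.68, 0.33 to 1.05). ASPM, of the spindle poles, was at 53.2 and 33.9 CPM (0.65, 0.40 to 0.90), and SPC25, SMC4, KIF11 and SMC2 lay between 0.50 and 0.57. NCAPG was at 0.39 and ASPM at 0.28 in UMIs not used for choosing. The lower genes were PTTG1, UBE2C, ARL6IP1 and CENPA. PTTG1, securin, was at 346 CPM in high-S, 543 in low-S and 1011 in high-M cells (-0.65, -0.72 to -0.58). UBE2C, the ubiquitin-conjugating enzyme of the anaphase-promoting complex, was at 255, 390 and 1500 CPM (-0.62, -0.70 to -0.53). ARL6IP1, a membrane protein of the endoplasmic reticulum, was at 146, 224 and 548 CPM (-0.62, -0.73 to -0.51). CENPA, the centromeric histone, was at 21.3, 36.9 and 130 CPM (-0.80, -1.08 to -0.51).

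The sign of some of these ratios depended on the M limit. Among cells with no M UMI at all, CENPA was at 0.24, UBE2C at 0.14 and RACGAP1, of the central spindle, at 0.21, against -0.67 (-0.94 to -0.39) for RACGAP1 with the median limit. Low-S cells held 316 CPM of the summed M genes and high-S cells 285 CPM, and the share of cells with no M UMI was 30.4% and 26.6%. PTTG1 kept its sign, with values between -0.73 and -0.31 over the 17 alternatives.

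Genes of the G1 list were near the background with 1 exception. Of 12 measured genes 1 was higher (beside 3.48% of all genes) and 0 lower, with a median of 0.05. That gene passed the limit of 20 CPM in high-S cells only, and so had to differ. Of the 11 that passed in both groups 0 were higher. CDKN1A, the CDK inhibitor p21 and a p53 target (protein-coding, GRCh38 chromosome 6, 36676460 to 36687339, plus strand), was at 27.9 CPM in high-S, 12.4 in low-S and 10.3 in high-M cells (log2 ratio 1.17, 0.78 to 1.58). CCND1, cyclin D1, was at 536 and 435 CPM (0.30, 0.23 to 0.37). CDKN1C was at 26.0 and 29.01 CPM (-0.16, -0.45 to 0.14) and BTG1, which slows growth, at 111 and 134 CPM (-0.27, -0.40 to -0.13).

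Among p53 induced genes 7 of 16 measured were higher (beside 3.48% of all genes) and 0 lower. Of the 13 that passed the limit in both groups 4 were higher (30.8%, beside 2.35% of all such genes). The list had a median of 0.46 and a summed level of 1188 CPM in high-S, 969 in low-S and 977 in high-M cells. The 7 were CDKN1A, PHLDA3, GADD45A, SESN1 (0.62), DDB2 (0.61), BBC3 (0.52) and MDM2 (0.51), the last the ubiquitin ligase of p53. PHLDA3, an inhibitor of AKT, was at 20.1 and 9.79 CPM (1.04, 0.59 to 1.50) in ectoderm, and at 35.5 CPM in both groups of the hPSC library (0.00). GADD45A was at 28.5 and 18.1 CPM (0.66, 0.32 to 1.01), and at 0.23 in UMIs not used for choosing. BAX, which starts apoptosis, was at 243 and 216 CPM (0.17, 0.07 to 0.27), CCNG1 at -0.04 (-0.13 to 0.05) and TP53INP1 at -0.23 (-0.50 to 0.06). In the hPSC library 3 of 20 measured genes of the list were higher, beside 3.30% of all genes there, with a median of 0.30.

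The other genes at the low end did not belong to 1 list. Of all 15 lowest genes, 6 were under 20 CPM in high-S cells, DLL1 and KDM6B among them. They entered only through low-S cells, in which they were high. DLL1, a Notch ligand, was at 15.7 CPM in high-S and 24.5 CPM in low-S cells (log2 ratio -0.64, -0.98 to -0.29). The long noncoding RNA MIAT was at 26.8 and 42.8 CPM (-0.67, -0.93 to -0.41), PLPP1, a lipid phosphatase, at 30.3 and 47.1 CPM (-0.64, -0.88 to -0.39) and KDM6B, a histone H3 demethylase, at 18.7 and 28.4 CPM (-0.60, -0.92 to -0.29). AFDN-DT, PRAC1, ARRDC3, RFX1, KLF7 and GRINA were the others, between -0.59 and -0.70. None of the 15 lowest genes stayed at -0.5 or below under all 17 alternatives, and 5 did in UMIs not used for choosing. In that setting DLL1 did not, and it was at -0.10 in the deepest tertile.

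Lineage genes differed little between the groups. Among 10 measured anterior neural genes 0 were higher and 0 lower, with a median of -0.13. Only 2 of the 10, OTX2 and ZIC1, had a ratio above 0. The summed list was at -0.08 (-0.11 to -0.04), and its median was below 0 under all 17 alternatives. OTX2, a forebrain factor, was at 113 and 95.9 CPM (log2 ratio 0.23, 0.08 to 0.38), ZIC1 at 130 and 117 CPM (0.15, 0.01 to 0.29) and LMO1 at 53.2 and 67.4 CPM (-0.34, -0.54 to -0.14). SOX1, an early marker of neural ectoderm, was at 42.8 CPM in both groups (0.00, -0.23 to 0.24). Of 10 neural SOX and bHLH genes 1 was higher (beside 3.48% of all genes) and 0 lower, and 4 had a ratio above 0. The median was -0.10 and the summed list was at -0.14 (-0.18 to -0.11). That median was also below 0 under all 17 alternatives. The higher gene was HES6, at 48.0 and 32.6 CPM (0.56, 0.31 to 0.82, and 0.18 in the deepest tertile). SOX4 was at 504 and 659 CPM (-0.39, -0.45 to -0.33). Of 15 pluripotency genes none passed the rule of size in either direction, with a median of 0.04. POU5F1, which maintains pluripotency, was at 498 and 516 CPM (-0.05, -0.12 to 0.02). NANOG, another such factor, stayed under the limit with 9.30 and 14.3 CPM (-0.62, -1.07 to -0.17), and at -0.20 in UMIs not used for choosing. Of 7 measured Notch genes 1 was lower (beside 0.618% of all genes), DLL1, which passed the limit in low-S cells only. Of the 6 that passed in both groups 0 were lower. HES1 was at 123 and 140 CPM (-0.18, -0.31 to -0.05), and at 0.09 in UMIs not used for choosing. No gene passed the rule among the FGF and ERK genes (median -0.08 over 10), the WNT, Hedgehog and retinoic acid genes (0.09 over 13), the early neuronal genes (0.04 over 4) or the adhesion and filament genes (0.03 over 11).

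Of the marker lists of other cell types, those of surface ectoderm and amnion were lower in high-S cells. Neural ectoderm markers summed to 1839 CPM in high-S and 1955 in low-S cells (log2 ratio -0.09, -0.12 to -0.05), with 8 of 10 at 20 CPM or more, and markers of pluripotent cells to 2747 and 2744 CPM. Neurons were at 87.5 and 88.1 CPM, neural crest at 54.9 and 57.3, placode at 34.0 and 33.0, and endoderm at 50.3 and 53.7 CPM. Surface ectoderm markers were at 76.6 and 101 CPM (-0.40, -0.56 to -0.24), with TP63, KRT5, KRT14 and KRT17 at 0 in high-S cells and nearly all UMIs from TFAP2C, at 75.4 CPM. Over the quintiles of the S score described below they were at 101, 91.2, 84.6, 84.5 and 76.6 CPM. Amnion markers were at 10.8 and 14.7 CPM (-0.45, -0.88 to -0.007), mesoderm at 14.8 and 12.6, mesenchyme at 18.3 and 21.3, and endothelium and blood at 1.58 and 0.942 CPM. Whether cells of these other types were present, and their part in the ratios of single genes, was not tested. Markers of neural ectoderm and of pluripotent cells were thus both present in the summed UMIs of the high-S cells of the library labelled ectoderm.

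Of 12 ribosome biogenesis genes 2 were higher and 0 lower (beside 3.48% and 0.618% of all genes), with a median of 0.34 beside 0.07. They were NOP58 at 46.3 and 30.7 CPM (log2 ratio 0.59, 0.33 to 0.86) and NOLC1 at 93.8 and 64.2 CPM (0.55, 0.37 to 0.73), both of which work in the nucleolus. Both passed the rule in some alternatives only, with lowest values of 0.08 and 0.14. Of 11 glycolysis and hypoxia genes 1 was higher and 1 lower (beside 3.48% and 0.618% of all genes), with a median of -0.15. Of the 10 that passed the limit in both groups 0 were higher and 1 lower, and PFKP passed in high-S cells only. PFKP, a phosphofructokinase, was at 27.9 and 17.0 CPM (0.72, 0.37 to 1.08) and DDIT4, an inhibitor of mTORC1, at 117 and 174 CPM (-0.57, -0.70 to -0.45). Their values nearest 0 over the alternatives were 0.20 and -0.23. BNIP3, of mitophagy, just missed the limit at 184 and 260 CPM (-0.498, -0.60 to -0.40). No gene passed the rule among heat shock genes (median 0.20 over 10), cholesterol synthesis genes (0.14 over 12), amino acid and ER stress genes (0.34 over 6) or immediate early genes (0.06 over 3). Of 5 measured Nodal and BMP genes 1 was higher (beside 3.48% of all genes) and 0 lower. That gene was ID3, a target of BMP signals, at 80.2 and 51.4 CPM (0.64, 0.44 to 0.84, and 0.24 in the deepest tertile). EGFP, from the guide construct, was at -0.07 (-0.10 to -0.05), and mitochondrially encoded genes had a median of 0.02.

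The change along the S score was followed over its 5 quintiles among cells with an M score at or below the median, which held 1041, 1066, 1197, 1415 and 1930 cells. The outer quintiles are the groups compared above, so the ends of the order are set by the choice of genes. Of the 208 higher genes, 119 were ordered over all 5 quintiles and 193 had their highest level in quintile 5, beside 459 (7.67%) and 2223 (37.2%) of all 5983 genes. MCM10 was at 25.2, 31.1, 42.2, 49.2 and 61.7 CPM and H1-5 at 13.7, 22.8, 27.0, 31.6 and 39.3 CPM. Others changed most at the top: E2F7 was at 12.8, 15.99, 22.5, 23.0 and 35.5 CPM and DTL at 36.7, 45.2, 59.0, 57.5 and 84.7 CPM. H4C3 was at 283, 344, 375, 419 and 423 CPM, with nearly the same level in the last 2 quintiles. Of the 37 lower genes 12 were ordered, beside 2.47% of all genes, and PTTG1 was at 543, 540, 487, 422 and 346 CPM, with its first 2 values nearly the same. UBE2C was highest in quintile 2, at 390, 413, 386, 327 and 255 CPM. SOX1 showed no order, at 42.8, 41.4, 36.7, 43.1 and 42.8 CPM. Median depth was 3984, 4731, 4971, 5011 and 4337.5 UMIs, and its part in the order was not tested.

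**Figure D5:**
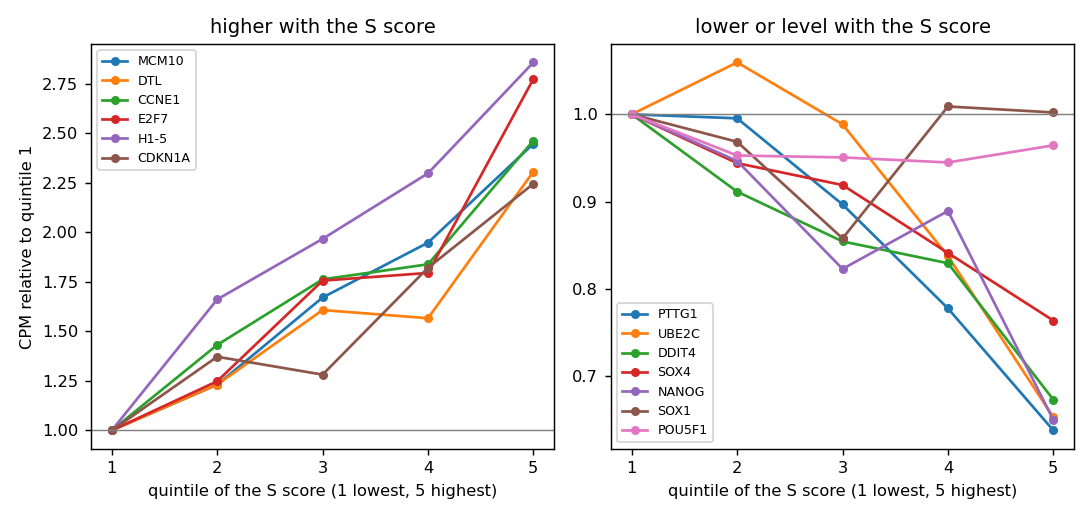
CPM relative to the lowest quintile (y axis) over quintiles of the S score (x axis, 1 lowest, 5 highest) among ectoderm cells with an M score at or below the median, for genes higher with the score (left) and lower or level with it (right). Lines join the 5 summed values of a gene, with no error shown; H1-5 and E2F7 reach the highest relative levels on the left and PTTG1 the lowest on the right.

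High-S cells also differed among themselves. Of the 1930 cells 1417 had at least 1 M UMI and 513 had none, with median S scores of 2410 and 2443 CPM and median depths of 4680 and 3844 UMIs, and a cell with fewer UMIs is more likely to show none. H4C3 was at 446 CPM in the former and 339 CPM in the latter (log2 ratio 0.40, 0.28 to 0.51), and the summed histone list at 709 and 579 CPM (0.29, 0.21 to 0.38). NCAPG was at 44.8 and 28.8 CPM (0.64, 0.25 to 1.05), UBE2C at 276 and 178 CPM (0.63, 0.48 to 0.79), and the summed G2 and M list outside the score at 7211 and 6319 CPM (0.19, 0.16 to 0.22). In the other direction, TK1 was at 34.1 and 43.9 CPM (-0.37, -0.71 to -0.01). CCNE1 was at 21.5 and 25.2 CPM with an interval that includes 0 (-0.68 to 0.24). The summed lists of licensing, fork, nucleotide and E2F genes lay between -0.02 and 0.02. Small ratios with intervals that excluded 0 were found for the summed S genes (-0.05, -0.10 to -0.01) and the repair list (-0.05, -0.10 to -0.002). The same held for mitochondrially encoded genes (-0.07, -0.09 to -0.06), heat shock genes (-0.04) and the transgenes (-0.10). In the other direction lay p53 induced genes (0.08, 0.02 to 0.15), anterior neural genes (0.10, 0.05 to 0.16), neural ectoderm markers (0.09), variant histones (0.06) and adhesion and filament genes (0.06). Lists with small ratios were named because their intervals excluded 0, and those intervals cover counting error only. The part of depth in these ratios was not tested. SP8, a forebrain factor, was at 38.8 and 22.9 CPM (0.76, 0.33 to 1.22), and was singled out after its value was seen.

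The same rule applied to the hPSC library, which played no part in choosing the ectoderm cells, found 1845 high-S and 1175 low-S cells among 13862 kept. The limits there were set on that library alone. By the rule of size 195 of 5902 genes were higher (3.30%) and 39 lower (0.661%), with a median of 0.06 over all genes. Genes higher in both libraries numbered 80, which is 38.5% of the ectoderm and 41.0% of the hPSC calls, and genes lower in both numbered 6, or 16.2% and 15.4%. Of the 188 ectoderm-higher genes measured in hPSC 178 had a ratio above 0 (94.7%, beside 62.8% of all genes measured in both), and of the 21 lower ones 20 had a ratio below 0 (95.2%, beside 37.2%). The median of the replication genes outside the scores was 0.38 in hPSC and 0.47 in ectoderm, and 39 of 98 were higher.

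Single genes differed between the libraries in size. H1-5 had a log2 ratio of 1.77 (1.45 to 2.10) in hPSC and CCNE1 1.03 (0.61 to 1.46), beside 1.51 and 1.30 in ectoderm, with overlapping intervals. CDKN1A was at 127 and 83.4 CPM in hPSC (0.61, 0.45 to 0.77), just below the ectoderm interval of 0.78 to 1.58. PTTG1 was at 601 and 702 CPM (-0.22, -0.28 to -0.16), UBE2C at 237 and 239 CPM (-0.01, -0.11 to 0.09) and CENPA at 32.4 and 33.4 CPM (-0.05, -0.32 to 0.23). The ratios of the last 3 were thus closer to 0 in hPSC, and their intervals did not overlap those in ectoderm. Of 6 immediate early genes measured in hPSC 4 were lower in high-S cells, beside 0.661% of all genes there; only 3 of the list were measured in ectoderm, and 0 of those were lower, beside 0.618%. With 1 library of each state, these differences in size were not tested.

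Guides were read from the ectoderm amplicon table, in which 3686 cells had exactly 1 guide with at least 20 UMIs, and 3137 of them passed the UMI filter. High-S cells were 17 of 138 cells with a non-targeting guide (12.3%, exact Clopper-Pearson 95% interval 7.34% to 18.99%) and 401 of 2999 cells with a targeting guide (13.4%, 12.2% to 14.6%). Kept cells not assigned exactly 1 guide, whether none or several, were high-S in 1512 of 10161 cases (14.9%, 14.2% to 15.6%). Their median depth was 4998 UMIs against 6085 UMIs for cells with exactly 1 guide. Over the 21 targets with at least 50 cells the share ran from 4 of 57 cells for DHRS4 (7.02%, 1.95% to 17.0%) to 13 of 58 cells for NSUN4 (22.4%, 12.5% to 35.3%), with a median of 13.75%. NSUN4 encodes a methyltransferase of the mitochondrial ribosome and DHRS4 a short-chain reductase. MDC1, a scaffold of the DNA damage response, was at 14 of 67 cells (20.9%, 11.9% to 32.6%). The intervals of all 21 targets overlapped that of the non-targeting guides, so no difference was detectable with 51 to 110 cells per target, and cells of 1 culture are not replicates.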

How the data were processed

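Both single-cell transcriptomes and the ectoderm amplicon table were used. The deposited matrices hold the authors' UMI counts per gene and barcode. The submitters' processing notes name STARsolo, STAR and the build GRCh38. Their versions, the annotation and whether counting used strand are not given in the sources read here, so overlapping and antisense genes cannot be told apart. The amplicon table lists reads, with the guide the authors matched and counts of mismatched bases per the file headers; its reads have 28 bases, 16 of cell barcode and 12 taken as UMI, whereas the labels name an earlier chemistry.

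Kept ectoderm cells had medians of 5188 UMIs. UMIs were summed over cells and scaled to CPM, with exact conditional binomial 95% intervals that cover counting error only. Genes were called at 20 CPM in at least 1 group of cells and a log2 ratio of 0.5 in size; the 22 score genes were left out, and XIST and Y-linked genes were never named. Python 3.11.15, numpy 2.4.6, scipy 1.17.1 and pandas 2.3.3 were used, and the steps were tested on simulated data. Gene positions are GENCODE v29, matched by Ensembl ID. Members, 29 gene lists, 12 marker lists and the 20-UMI guide limit were chosen with earlier results of these data known. Named genes are the score genes, the 15 highest and lowest outside mitochondrial and ribosomal genes, up to 3 from each end of each list, and SOX1, OTX2, POU5F1, NANOG and HES1; other list members were named after their values were seen, and some genes the rule takes are not reported here. Alternatives changed the depth, the split of UMIs, the score genes, quantiles, M limit, filters, scaling, CPM limit, fold and guide limit.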

Additional observations from a re-analysis of the deposited data

How the results depend on the processing

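With 1 library per state there is no replicate to leave out and no error between cultures; intervals cover counting error. No paired analysis was possible because each group holds 1 library. Depth limits the choice of cells, since a median of 12 S UMIs set a high-S cell apart. Beside 208 higher and 37 lower genes, and a median of 0.47 for replication genes, cells thinned to 3000 UMIs gave 105, 22 and 0.36, the outer 10% gave 442, 100 and 0.56, the outer 30% gave 123 and 13, an M score of 0 gave 604, 296 and 0.56, the MCM score gave 129, 13 and 0.36, and the score of 10 other genes 20 lower and 0.39. UMIs not used for choosing gave 0.34, and scaling by the median ratio gave 58 lower and 0.40. The tertiles of depth gave 337, 513 and 705 higher and 174, 204 and 108 lower genes. Limits of 5 and 50 CPM gave 706 and 68 higher and 234 and 13 lower, and a log2 limit of 1 gave 25 and 0. Among the 56 named genes past the rule of size, signs reversed for CENPA (0.24), RACGAP1 (0.21) and UBE2C (0.14), all with an M score of 0. The cause of these shifts was not tested. Of 2992 values of 176 named genes under 17 settings, 2408 lay inside the counting interval of the main value, 490 outside with the same sign and 94 outside with the opposite sign. Of those 94 the other 91 belong to 61 genes that had not passed the rule, such as HSPA1A (0.49, and -0.17 in thinned cells) and LMO1 (-0.34, and 0.16 in the middle tertile of depth). Guide limits of 10 and 50 UMIs gave shares within the intervals of the main values.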
